A study of Mus musculus with 15 samples.

Results

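The genes described here encode, or are named for, respiratory complexes II, III, IV and V, cytochrome c and the factors that assemble complexes II and IV. They were found by symbol in a table of 23337 mouse genes: names that begin Uqcr, Cox with a digit, or Atp5, the 4 genes Sdha to Sdhd, names that begin Sdhaf with a digit, and Cyc1 and Cycs. The rule found 59 genes and used no measured value. Complex II had 4 subunit genes and 2 assembly factors, complex III 9 subunit genes, complex IV 17 subunit genes and 8 assembly or joining factors, complex V 15 subunit genes, and cytochrome c 1 gene. The other 3 were set apart by name, and their function was not examined: RefSeq lists Atp5s as Dmac2l, Atp5sl as Dmac2 and Cox4nb as Emc8. Complex I genes and the subunits that the mitochondrial genome encodes were not analysed here.

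RNA came from cardiomyocytes purified by cell sorting from hearts of 4-week-old mice that carried Cas9 and GFP at the Rosa locus. On postnatal day 1 the mice had received an adeno-associated virus (AAV), a virus used to deliver a gene: AAV-ATF4-2A-GFP (the ATF4 group), AAV-DDIT3-2A-GFP (the DDIT3 group) or AAV-GFP (the GFP group). ATF4 and DDIT3, also called CHOP, are transcription factors of the integrated stress response, and GFP alone is the control. Each group had 5 libraries, and the controls carried the Rosa Cas9-GFP allele, an AAV and GFP as the others did. The labels do not give the promoter that drives the vector, nor whether the 5 libraries came from separate animals, so p-values measure only the spread between these libraries, which may in part be technical. Male and female libraries, told apart by their RNA, stood in every group, so that each group held more than 1 animal.

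Complex II (succinate dehydrogenase) passes electrons from succinate to ubiquinone, complex III passes them from ubiquinone to cytochrome c, and complex IV (cytochrome c oxidase) passes them from cytochrome c to oxygen. Complexes III and IV pump protons, and complex V (ATP synthase) makes ATP from the proton gradient. Cardiomyocytes depend on this chain for contraction. For several complex IV subunits the heart and skeletal muscle use an isoform of their own, encoded by Cox6a2, Cox7a1 and Cox8b, in place of the widely expressed Cox6a1, Cox7a2 and Cox8a.

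Library totals lay between 6217744 and 8317249 counts. Atf4 lay at 351 to 538 CPM (counts scaled to 1 common library total) in the ATF4 libraries, 43.6 to 101 in the DDIT3 libraries and 51.3 to 82.1 in the GFP libraries. Ddit3 lay at 21.7 to 38.5 CPM in ATF4, 664 to 1073 in DDIT3 and 13.4 to 16.6 in GFP, so both vector genes were high in the groups named for them. The 10 cardiomyocyte markers looked for were among the abundant transcripts, with summed levels of 82021 to 101669 CPM in ATF4, 103661 to 114398 in DDIT3 and 104899 to 134825 in GFP. The 12 endothelial markers summed to 1123 to 1624 CPM in ATF4, 469 to 796 in DDIT3 and 484 to 975 in GFP. The 7 pericyte and smooth muscle markers summed to 261 to 864 CPM in ATF4, 236 to 995 in DDIT3 and 421 to 840.2 in GFP. The 7 leukocyte markers summed to 9.24 to 20.1 CPM in ATF4, 11.05 to 16.8 in DDIT3 and 13.1 to 19.0 in GFP. Xist and 4 Y-linked genes put 4 libraries as female (ATF4 replicate 2, DDIT3 replicate 2, GFP replicates 4 and 5) and 11 as male. The label of GFP replicate 5 names another version of the library chemistry than those of the other 14.

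The results turn on a contrast between the widely expressed and the heart and muscle isoforms of complex IV, and on Sdha, which had the lowest p. The 250 bases before the start of these genes are therefore shown, from RefSeq (GRCm38.p6), 5′ to 3′ on the gene's own strand. Capitals mark matches to the letters searched for NRF1 (GCGCANGC) and for ETS factors such as GABP (CCGGAAG), on either strand. The first 3 are widely expressed isoforms, the next 2 are heart and muscle isoforms and the last is Sdha. Cox6a2 had no entry.
Cox6a1, chr5:115348959-115349208 (minus strand): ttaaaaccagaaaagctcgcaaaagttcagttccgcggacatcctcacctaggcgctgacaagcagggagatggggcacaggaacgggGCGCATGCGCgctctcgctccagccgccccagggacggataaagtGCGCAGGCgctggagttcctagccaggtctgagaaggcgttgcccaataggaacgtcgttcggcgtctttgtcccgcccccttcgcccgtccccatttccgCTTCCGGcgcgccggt
Cox7a2, chr9:79759854-79760103 (minus strand): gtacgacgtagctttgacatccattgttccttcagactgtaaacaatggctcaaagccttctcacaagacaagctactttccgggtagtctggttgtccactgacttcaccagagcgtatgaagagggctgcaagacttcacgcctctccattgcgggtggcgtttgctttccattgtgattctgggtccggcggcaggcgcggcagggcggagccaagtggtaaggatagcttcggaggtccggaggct
Cox8a, chr19:7217617-7217866 (minus strand): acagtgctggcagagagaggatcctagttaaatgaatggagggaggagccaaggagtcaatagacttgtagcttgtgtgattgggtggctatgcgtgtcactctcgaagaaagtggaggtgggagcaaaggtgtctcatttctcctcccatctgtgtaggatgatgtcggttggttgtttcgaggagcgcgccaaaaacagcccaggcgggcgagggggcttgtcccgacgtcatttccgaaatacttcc
Cox7a1, chr7:30183921-30184170 (plus strand): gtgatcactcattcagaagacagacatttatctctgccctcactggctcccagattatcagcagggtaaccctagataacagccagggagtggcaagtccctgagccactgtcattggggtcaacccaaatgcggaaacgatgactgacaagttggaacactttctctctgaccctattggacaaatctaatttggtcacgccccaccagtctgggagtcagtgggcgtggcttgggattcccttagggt
Cox8b, chr7:140900447-140900696 (minus strand): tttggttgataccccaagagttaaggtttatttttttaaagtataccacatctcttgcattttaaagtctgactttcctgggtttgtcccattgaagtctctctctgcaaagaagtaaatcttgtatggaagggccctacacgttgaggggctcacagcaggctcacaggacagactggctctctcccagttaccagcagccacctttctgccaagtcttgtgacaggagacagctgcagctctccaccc
Sdha, chr13:74350241-74350490 (minus strand): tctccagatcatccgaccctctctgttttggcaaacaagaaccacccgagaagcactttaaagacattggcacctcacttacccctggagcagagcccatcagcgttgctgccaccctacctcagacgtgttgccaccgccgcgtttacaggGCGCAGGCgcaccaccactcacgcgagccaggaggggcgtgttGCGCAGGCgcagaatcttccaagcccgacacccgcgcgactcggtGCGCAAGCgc

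The widely expressed isoforms had more CpG pairs in this window (26 in Cox6a1, 14 in Cox7a2 and 11 in Cox8a) than the muscle isoforms (4 in Cox7a1 and 1 in Cox8b). Sdha had 21. Uqcrc1 and Uqcrfs1, which also fell and were among the 8 members with the lowest p, had 8 and 23. Their windows are not shown. The median was 15 over 50 windows of 45 members and 6 over all 32851 windows of the table, and the median GC content was 56.6% and 52.4%. The NRF1 letters stood in 26.0% of the members' windows and 8.30% of all windows, and the ETS letters in 26.0% and 6.91%. Of the 8 members with the lowest p in ATF4 against GFP, Sdha, Sdhb and Cox6a1 had the NRF1 letters. Uqcrc1, Uqcrfs1 and Atp5g3 had neither the NRF1 nor the ETS letters, and Atp5a1 and Cyc1 had no entry. Sdha is thus not typical of the strong falls in its NRF1 matches. In Cox6a1 2 NRF1 matches share bases at GCGCATGCGC. The letters AANATGGCG, searched for YY1, stood in 6.0% of the members' windows and 1.12% of all, and TNAAGGTCA, searched for estrogen-related receptors, in 2.00% and 1.14%. TGATGNAA, searched for ATF4 with a C/EBP partner, stood in 0 of the members' 50 windows and in 3.45% of all. A match describes the letters and is not a binding site, and these windows were not measured in the study.

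In ATF4 cardiomyocytes most of these genes were lower than in GFP cardiomyocytes. Of 55 members with enough counts to be tested, 38 fell, 3 rose and 14 did not pass the test (edgeR's quasi-likelihood test, Benjamini-Hochberg adjusted p below 0.05 over all 11814 genes tested). That is 69.1% of them called lower, where 15.6% of all tested genes were, and 5.45% called higher, where 16.5% of all tested genes were. The median log2 fold change was -0.48 over the tested members and 0.02 over all tested genes. The falls were of moderate size: all but 1 of the called falls lay between -0.33 (Atp5s) and -0.83 (Cox8b) on the log2 scale, and Cox7a1 reached -1.25. The 5 ATF4 libraries lay below the 5 GFP libraries with no overlap for 18 members and above them for 2, against 9.79% and 11.7% of all tested genes. The 4 untested members were Cox6b2, a testis isoform, Cox7b2, Atp5g2 and Cox8c. Cox8c had 0 counts in the 15 libraries, which allows a level of up to 0.0269 CPM. The others had 37 (Cox6b2), 5 (Cox7b2) and 106 (Atp5g2) counts over the 15 libraries.

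Markers of cell types moved with the same contrast. Of the 10 cardiomyocyte markers 6 fell in ATF4 against GFP, among them Pln (-0.75 ± 0.10), Myl3 (-0.82 ± 0.14) and Mybpc3 (-0.55 ± 0.11, log2 fold change ± SE). Myh6 (-0.35 ± 0.14), Tnnt2 (-0.19 ± 0.11), Ttn (-0.07 ± 0.24) and Actn2 (-0.02 ± 0.09) did not pass the test. Of the other markers, 11 of 12 endothelial and 4 of 7 pericyte and smooth muscle markers rose. Over all tested genes 15.6% were called lower and 16.5% higher. No tested fibroblast (0 of 7) or leukocyte (0 of 4) marker was called. In sorted bulk cells, fewer cells of a type and less RNA per cell cannot be told apart, and the part of other cell types in the members' falls was not tested. As a level, the members' summed CPM divided by the summed CPM of the 10 cardiomyocyte markers was 0.451 ± 0.0982 in ATF4, 0.513 ± 0.0396 in DDIT3 and 0.50 ± 0.0764 in GFP (SD, n = 5 each). This ratio overlapped between the groups, at 0.306 to 0.541 in ATF4 and 0.416 to 0.588 in GFP. Myh6 was the largest part of the marker sum, at 47948 ± 7745 CPM in ATF4 and 61145 ± 12694 in GFP (SD, n = 5 each). The ratio thus rests largely on 1 gene, whose own fall did not pass the test. Scaling by library totals alone shifted the median of all tested genes to 0.18 and left 27 members lower, where 9.83% of all tested genes were called lower and 25.5% higher in that fit. In the 4 male ATF4 and 3 male GFP libraries alone, 20 members were lower and 3 higher, at a median of -0.35, where 11.5% of all genes tested in those libraries were called lower and 13.2% higher.

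**Figure D1:**
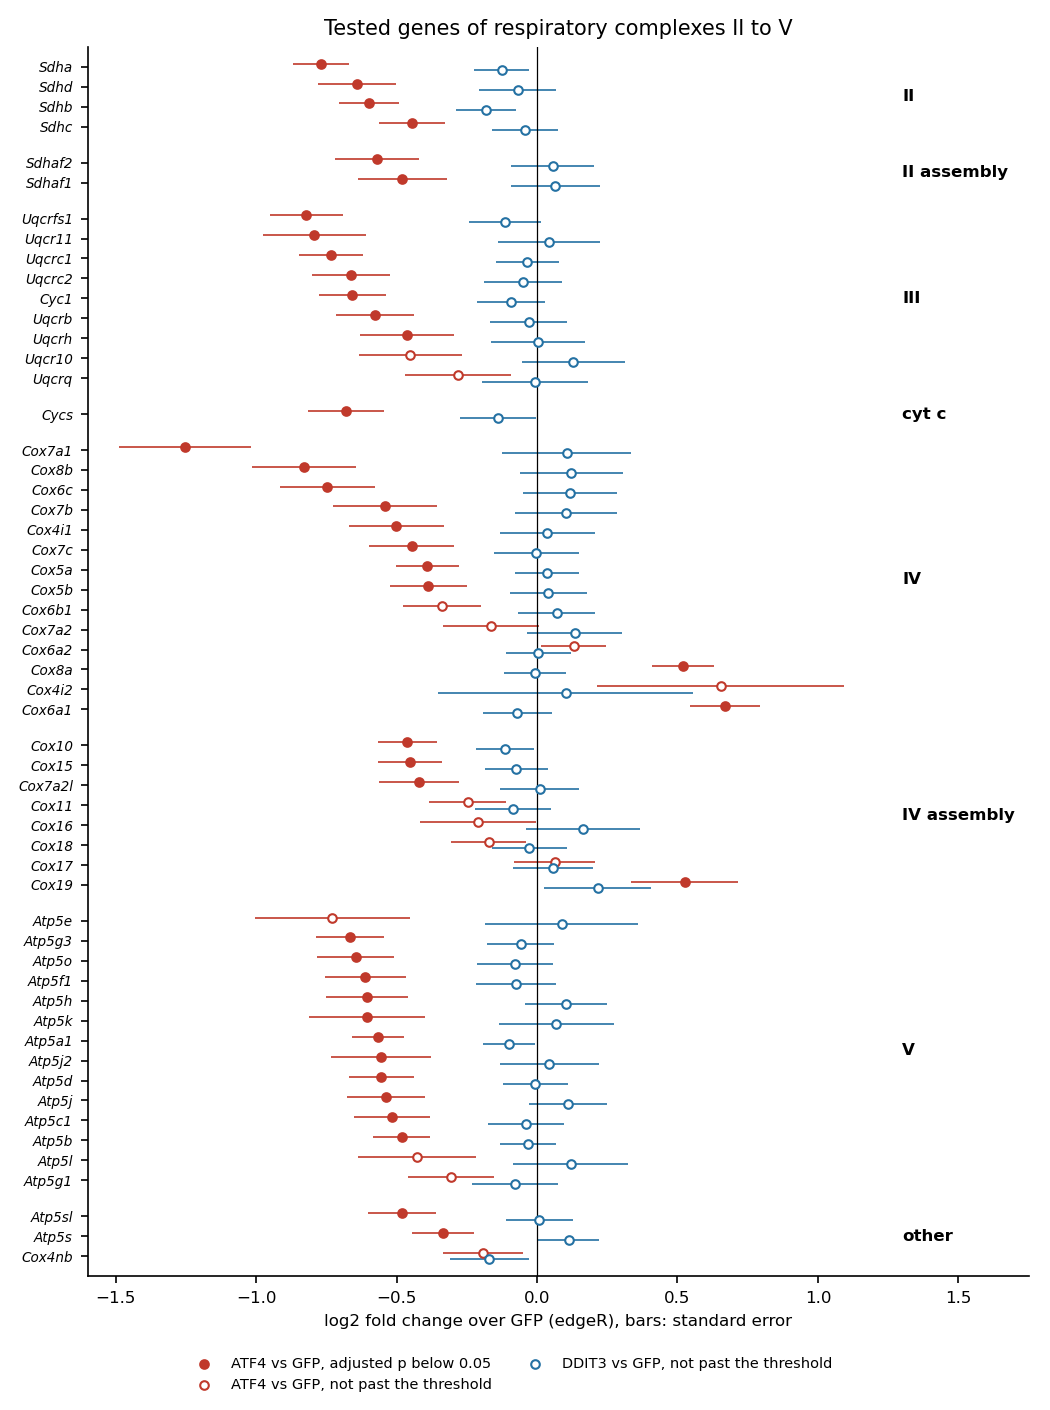
Log2 fold change over GFP of the 55 tested members (points, with bars for the standard error), ordered within each complex, for ATF4 (red) and DDIT3 (blue). Filled points passed the adjusted p of 0.05: 41 for ATF4, of which 38 lie below 0, and 0 for DDIT3.

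Complex II fell as a whole: the 4 subunit genes passed the test, from -0.44 (Sdhc) to -0.77 (Sdha) on the log2 scale. Of all tested genes 15.6% were called lower. Sdha encodes the flavoprotein that oxidises succinate and lies at chr13:74322255-74350240 in GRCm38.p6. It had 1978, 1739, 2054, 2106 and 2302 CPM in the ATF4 libraries, 2993, 3066, 3098, 3043 and 3710.2 CPM in the DDIT3 libraries and 3417, 3149.6, 3329.8, 3369 and 4097 CPM in the GFP libraries. Every ATF4 library lay below every DDIT3 and GFP library, and replicate 5 was the highest in each group. The log2 fold change in ATF4 against GFP was -0.77 ± 0.10 (SE), with an adjusted p of 1.16e-05 in edgeR, the lowest among the members. Sdhb encodes the iron-sulphur subunit. It had 1011, 871, 1292, 1284 and 1177 CPM in the ATF4 libraries, 1403, 1465, 1483, 1584 and 1585 CPM in the DDIT3 libraries and 1533, 1832, 1599, 1824 and 1739 CPM in the GFP libraries. The ATF4 libraries again lay below the rest, and the log2 fold change was -0.60 ± 0.11 (SE, edgeR adjusted p 3.45e-04). The membrane anchors followed, with log2 fold changes of -0.64 ± 0.14 for Sdhd and -0.44 ± 0.12 for Sdhc (SE). Both assembly factors of the complex fell too: Sdhaf2, which helps attach the flavin to Sdha, by 0.57 ± 0.15 and Sdhaf1, which serves the iron-sulphur subunit, by 0.48 ± 0.16 on the log2 scale (SE). The library kit does not mark strand, and 69.6% of Sdhaf1's exon bases lie opposite exons of another gene, so its counts are uncertain.

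In complex III 7 of 9 genes (77.8%) fell and none rose, where 15.6% of all tested genes were called lower and 16.5% higher. Uqcrc1 encodes a core protein and had the highest level per length of the complex, 1341 CPM per kilobase in ATF4 and 2229 in GFP. It had 1975, 1663, 2364, 2631 and 2467 CPM in the ATF4 libraries, 3505, 3251, 3395, 3928 and 3942 CPM in the DDIT3 libraries and 3553, 3728, 3442, 3892 and 3845 CPM in the GFP libraries. The ATF4 values lay below all others, at a log2 fold change of -0.73 ± 0.11 (SE, edgeR adjusted p 7.96e-05). Uqcrfs1 encodes the Rieske iron-sulphur protein, which takes electrons from ubiquinol. It had 823, 663, 1110.0, 1135 and 998 CPM in the ATF4 libraries, 1527, 1403, 1456, 1697 and 1640.1 CPM in the DDIT3 libraries and 1443, 1725, 1588, 1874 and 1725 CPM in the GFP libraries. No ATF4 library reached the lowest DDIT3 or GFP library, and the log2 fold change was -0.82 ± 0.13 (SE, edgeR adjusted p 1.04e-04). Cyc1 encodes cytochrome c1, which hands electrons to cytochrome c. It had 1057, 869.8, 1414, 1427 and 1275 CPM in the ATF4 libraries, 1764, 1596, 1734, 1997 and 1843 CPM in the DDIT3 libraries and 1764, 1952, 1858, 2074 and 1879 CPM in the GFP libraries. Its ATF4 libraries were likewise apart from the others, at -0.66 ± 0.12 (SE, edgeR adjusted p 4.41e-04).

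The second core protein, Uqcrc2, fell by 0.66 on the log2 scale in ATF4 against GFP. Of the small accessory subunits Uqcr11 fell by 0.79, Uqcrb by 0.58 and the hinge protein gene Uqcrh by 0.46. Some 43.2% of the 50-base windows of Uqcrb also stand in other genes. Uqcr10 (-0.45 ± 0.18, SE, adjusted p 0.0692) and Uqcrq (-0.28 ± 0.19, adjusted p 0.273, edgeR) did not pass the test. Cycs, which encodes the mobile carrier cytochrome c itself, averaged 28.3 ± 6.13 CPM in ATF4 and 45.3 ± 5.89 CPM in GFP (SD, n = 5 each). Its log2 fold change was -0.68 ± 0.14 (SE, edgeR adjusted p 9.63e-04) and the groups did not overlap. Its level per length was low, 9.25 CPM per kilobase in ATF4 and 14.8 in GFP, against 1596 for Cyc1 in GFP. Of its 50-base windows 28.2% also stand in transcripts of other genes, and the part of this in the level was not tested.

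Complex IV was the complex with subunit genes called in both directions: of 14 tested 8 fell, 2 rose and 4 did not pass the test. That is 57.1% called lower, where 15.6% of all tested genes were. The 14.3% called higher is near the 16.5% of all tested genes. The widely expressed Cox6a1 rose. It lies at chr5:115345652-115348958 and had 162, 130.5, 192, 181 and 155 CPM in the ATF4 libraries, 92.2, 77.1, 96.3, 120.4 and 105 CPM in the DDIT3 libraries and 95.5, 110.3, 107, 110.1 and 92.3 CPM in the GFP libraries. The lowest ATF4 library stood above the highest DDIT3 and GFP libraries. The log2 fold change was 0.67 ± 0.12 (SE, edgeR adjusted p 4.39e-04). Its muscle counterpart Cox6a2 (chr7:128205435-128206366) had 2314, 2155, 2915, 2441 and 2216 CPM in the ATF4 libraries, 1959, 2554, 2251, 2175 and 2081 CPM in the DDIT3 libraries and 2103, 2639.5, 2132, 2366 and 1750.3 CPM in the GFP libraries. These groups overlapped, and the log2 fold change of 0.13 ± 0.12 did not pass the test (SE, edgeR adjusted p 0.411). Some 10.3% of the exon bases of Cox6a2 lie opposite exons of Itgad, and 12.3% of the windows of Cox6a1 also stand in another gene.

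In the second pair the muscle form fell. Cox7a1 (chr7:30184171-30186030) had 168, 123, 299.5, 342 and 226 CPM in the ATF4 libraries, 623, 649.7, 482, 668 and 547 CPM in the DDIT3 libraries and 390.4, 661, 490.3, 743 and 475 CPM in the GFP libraries. The highest ATF4 library was below the lowest GFP library. The log2 fold change of -1.25 ± 0.23 (SE, edgeR adjusted p 5.78e-04) was the deepest among the members, a level 0.420 times that of GFP. The widely expressed Cox7a2 (chr9:79755241-79771422) had 412, 321, 589, 589 and 390.2 CPM in the ATF4 libraries, 568, 557, 499, 658 and 547 CPM in the DDIT3 libraries and 389, 603, 452, 665 and 468 CPM in the GFP libraries. Here the groups overlapped and the log2 fold change was -0.16 ± 0.17 (SE, edgeR adjusted p 0.490).

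In the third pair both forms passed the test, in opposite directions. The muscle form Cox8b (chr7:140898942-140900446) had 254, 183, 407, 368 and 275 CPM in the ATF4 libraries, 582, 665, 509, 611 and 505 CPM in the DDIT3 libraries and 435, 642, 469, 657 and 437 CPM in the GFP libraries. All ATF4 libraries were below all others. The log2 fold change was -0.83 ± 0.19 (SE, edgeR adjusted p 0.00227). The widely expressed Cox8a (chr19:7215158-7217616) had 195, 151, 225, 212 and 188 CPM in the ATF4 libraries, 126, 141, 134, 145 and 129 CPM in the DDIT3 libraries and 123, 151, 142, 146 and 116 CPM in the GFP libraries. Every ATF4 library lay above every other library, and the log2 fold change was 0.52 ± 0.11 (SE, edgeR adjusted p 0.00146). No 50-base window of Cox7a1, Cox7a2, Cox8a or Cox8b stands in a transcript of another gene.

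The ratio of the muscle form to the widely expressed form compares both genes inside a library. Scaling between libraries enters it only through the 1 CPM added to each gene, which is small beside the levels of these 3 pairs. The log2 ratio of Cox6a2 to Cox6a1 (CPM + 1) was 3.87 ± 0.11 in ATF4, 4.48 ± 0.33 in DDIT3 and 4.39 ± 0.13 in GFP (SD, n = 5 each). That of Cox7a1 to Cox7a2 was -1.04 ± 0.28 in ATF4, 0.07 ± 0.11 in DDIT3 and 0.09 ± 0.07 in GFP (SD, n = 5 each). That of Cox8b to Cox8a was 0.57 ± 0.25 in ATF4, 2.08 ± 0.14 in DDIT3 and 1.94 ± 0.19 in GFP (SD, n = 5 each). In these 3 pairs the ATF4 libraries lay below the GFP libraries with no overlap, by -0.52, -1.13 and -1.37 on the log2 scale. Each had a two-sided exact permutation p of 0.00794, the smallest that 5 against 5 libraries allow, and an adjusted p of 0.0149 over 15 tests (5 pairs in 3 comparisons). Such a ratio shows unequal change of the 2 genes, not which of them changed. Per length, Cox8b made up 68.9 ± 3.76% of the Cox8a and Cox8b total in ATF4 and 85.2 ± 1.62% in GFP (SD, n = 5 each). Cox7a1 made up 49.97 ± 4.83% of its pair in ATF4 and 68.6 ± 1.04% in GFP, and Cox6a2 92.2 ± 0.535% and 94.5 ± 0.473%. So the muscle form remained the larger part of the Cox6a and Cox8 pairs in each ATF4 library. In the Cox7a pair its share ranged from 44.1% to 54.5% over the ATF4 libraries. The summed endothelial markers were higher in these same ATF4 libraries than in any GFP library. The pericyte and smooth muscle sums overlapped, at 261 to 864 CPM in ATF4 and 421 to 840.2 in GFP, though 4 of these 7 markers were called higher. The part of such cells in the ratios was not tested.

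**Figure D2:**
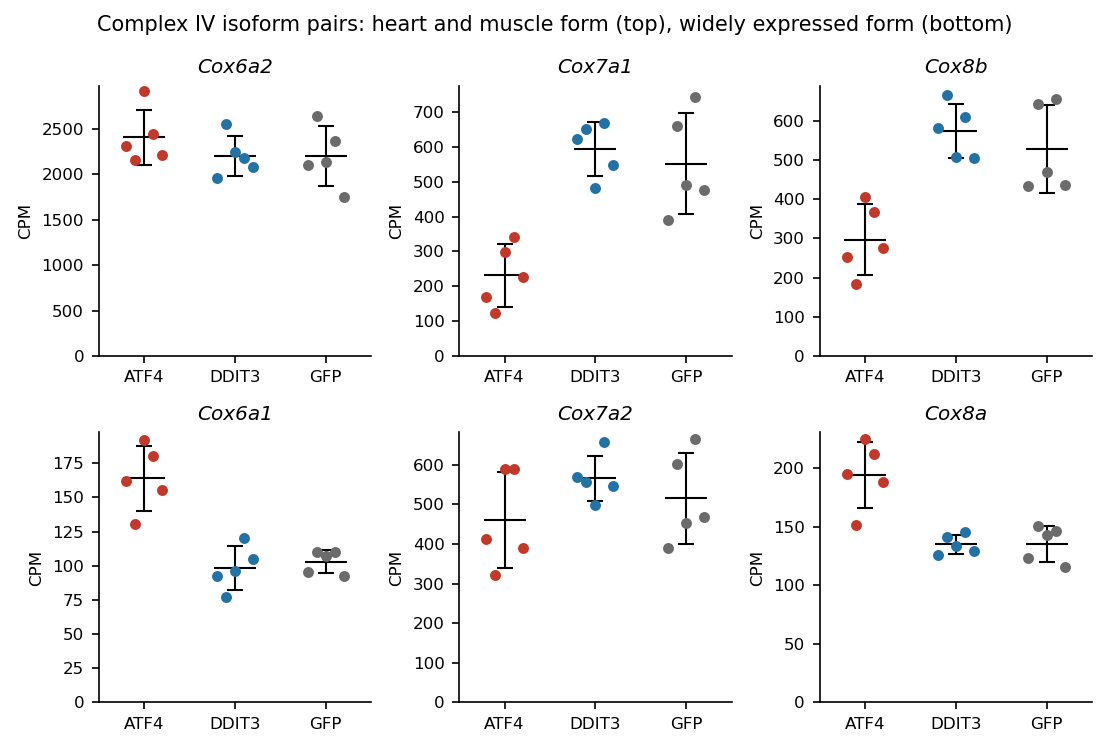
CPM of the 3 complex IV isoform pairs in each library (points), with group mean and SD (black), for ATF4, DDIT3 and GFP, muscle forms above and widely expressed forms below. Cox7a1 and Cox8b in ATF4 lie below all GFP libraries and Cox6a1 and Cox8a above them, and Cox6a2 and Cox7a2 overlap.

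None of the other complex IV subunits was called higher. Cox6c fell by 0.75, Cox7b by 0.54, Cox4i1 by 0.50, Cox7c by 0.45, Cox5a by 0.39 and Cox5b by 0.39 on the log2 scale in ATF4 against GFP. Windows of 50 bases shared with other genes made up 48.2% of Cox7c, 30.6% of Cox5b and 21.1% of Cox6c. The part of this in their values was not tested. Cox6b1 missed the threshold at -0.34 ± 0.14 (SE, edgeR adjusted p 0.0688). Cox4i2, a paralog of subunit 4 with 215 counts in all libraries together, was at 0.65 ± 0.44 (adjusted p 0.272, edgeR). Its log2 ratio to Cox4i1 differed by 0.99 in ATF4 against GFP, with overlapping groups (exact permutation p 0.0476, adjusted 0.0714). Cox4i2 averaged 2.51 CPM in ATF4, 1.70 in DDIT3 and 1.57 in GFP, near the added 1 CPM. Its ratio therefore also depends on the scaling between libraries.

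The assembly and joining factors of complex IV were less uniform. Of 8 tested 37.5% were called lower and 12.5% higher, where 15.6% and 16.5% of all tested genes were. Cox10 and Cox15, which make the haem groups of the complex, fell by 0.46 ± 0.10 and 0.45 ± 0.11 on the log2 scale (SE). Cox7a2l, a factor that joins complexes III and IV in supercomplexes, fell by 0.42 ± 0.14. Cox19, a copper-related assembly factor, rose. It had 41.4, 36.2, 51.4, 65.6 and 46.5 CPM in the ATF4 libraries, 35.1, 31.2, 31.8, 50.8 and 45.7 CPM in the DDIT3 libraries and 21.5, 36.4, 30.2, 38.6 and 40.9 CPM in the GFP libraries. The ATF4 and GFP ranges overlapped. The log2 fold change was 0.53 ± 0.19 with an edgeR adjusted p of 0.0431, and the call was lost when any of 7 libraries was left out (adjusted p up to 0.127, without ATF4 replicate 4). The copper factors Cox17 (0.06 ± 0.14) and Cox11 (-0.25 ± 0.14), the insertion factor Cox18 (-0.17 ± 0.13) and Cox16 (-0.21 ± 0.21) did not pass the test. For Cox17 52.7% and for Cox16 88.7% of 50-base windows also stand in other genes, and 48.3% of Cox11's exon bases lie opposite Tom1l1, so these 3 values are uncertain.

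Of 14 tested complex V genes 11 (78.6%) fell and none rose, where 15.6% of all tested genes were called lower and 16.5% higher. Atp5b encodes the catalytic beta subunit and had the highest level per length among the members, 4868 CPM per kilobase in ATF4 and 6799 in GFP. It had 8562, 7352, 9747, 10139 and 9931 CPM in the ATF4 libraries, 12736, 12659.7, 11854, 12487 and 12784 CPM in the DDIT3 libraries and 10565, 13776, 12412, 13472 and 13648 CPM in the GFP libraries. The highest ATF4 library lay below the lowest GFP library, at a log2 fold change of -0.48 ± 0.10 (SE, edgeR adjusted p 0.00127). Atp5a1 encodes the alpha subunit, which alternates with beta in the catalytic head. It had 5070.5, 4335, 5582, 5868 and 5710.3 CPM in the ATF4 libraries, 7117, 6890.3, 7068, 7702 and 7905 CPM in the DDIT3 libraries and 7724, 7834, 7100.0, 8216 and 8422 CPM in the GFP libraries. The ATF4 libraries were below all others, at -0.56 ± 0.09 (SE, edgeR adjusted p 1.51e-04).

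The proton-driven ring of complex V is built from 1 protein encoded by 3 genes, and Atp5g3 supplied most of its RNA. Atp5g3 had 1109, 1006, 1538, 1521 and 1166 CPM in the ATF4 libraries, 1962, 1874, 1819, 2072 and 1939 CPM in the DDIT3 libraries and 1789.6, 2174, 1828, 2317 and 1947 CPM in the GFP libraries. Its ATF4 libraries were apart from the rest, at -0.67 ± 0.12 (SE, edgeR adjusted p 3.59e-04). Atp5g1 averaged 289 ± 72.6 CPM in ATF4 and 358 ± 57.1 in GFP (SD, n = 5 each) and did not pass the test (-0.31 ± 0.15, SE, edgeR adjusted p 0.135). Of its windows 56.2% also stand in other genes. Per kilobase in GFP, Atp5g3 had 2962 CPM, Atp5g1 413 and Atp5g2 1.52. The log2 ratio of Atp5g1 to Atp5g3 was higher in ATF4 than in GFP by 0.35 (exact permutation p 0.0238, adjusted 0.0397), and this call was lost without any 1 of 7 libraries.

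The other head and stalk subunits fell by similar amounts on the log2 scale in ATF4 against GFP. Atp5o, which connects head and stalk, fell by 0.65, the stalk subunits Atp5f1 by 0.61, Atp5h by 0.60 and Atp5j by 0.54. The central shaft subunits Atp5c1 and Atp5d fell by 0.52 and 0.55. The membrane subunits Atp5k and Atp5j2 fell by 0.60 and 0.55. Atp5e (-0.73 ± 0.27, adjusted p 0.0525) and Atp5l (-0.43 ± 0.21, adjusted p 0.127, edgeR) did not pass. Atp5e was called by DESeq2 (adjusted p 0.0244), limma-voom (0.0402), edgeR with median-of-ratios factors (0.0490) and edgeR with a replicate block, which also called Cox6b1 and Uqcr10 (0.0196 to 0.0412). Atp5e had a deep estimate with a wide error, and its GFP values had a coefficient of variation of 38.3%. Windows shared with other genes made up 50.5% of Atp5h, 68.5% of Atp5l and 28.5% of Atp5f1. Of the 3 genes set apart by name, Atp5sl fell by 0.48, Atp5s by 0.33, and Cox4nb was at -0.19 ± 0.14 (edgeR adjusted p 0.318).

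**Figure D3:**
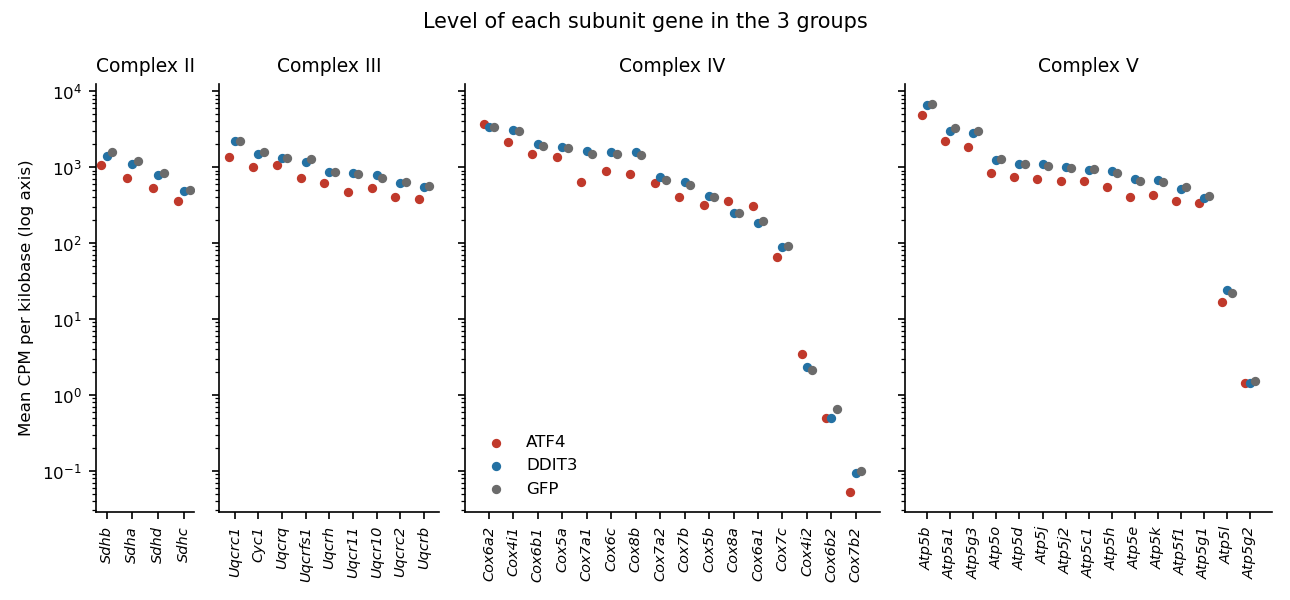
Mean CPM per kilobase of transcript (log axis, 5 libraries a group) of each complex II, III, IV and V subunit gene with a count in GFP, ordered by its GFP level within each complex. ATF4 (red) lies below GFP (grey) for most genes, and DDIT3 (blue) lies close to GFP. Cox6a1, Cox8a, Cox4i2 and Cox6a2, the highest of complex IV, lie above GFP in ATF4. Of these Cox6a1 and Cox8a passed the test.

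Summed over the genes of a complex, the ATF4 libraries lay below all GFP libraries in complexes II, III and V. The 4 complex II genes summed to 3916, 3453, 4676, 4745 and 4578 CPM in the ATF4 libraries, 5961, 5949, 6077, 6361 and 6987 in the DDIT3 libraries and 6339, 6708, 6524, 7065 and 7486 in the GFP libraries. The 9 complex III genes averaged 6643 ± 1375 CPM in ATF4, 10214 ± 860.3 in DDIT3 and 10555 ± 991 in GFP (SD, n = 5 each). The 15 complex V genes averaged 20507 ± 2953 CPM in ATF4, 28792 ± 1122 in DDIT3 and 29686 ± 2719.9 in GFP. For the 17 complex IV genes the ranges overlapped, at 6114 to 9701 CPM in ATF4 and 8205 to 11749 in GFP. The 59 genes together averaged 40052 ± 6437 CPM in ATF4, 56359 ± 2609 in DDIT3 and 57775 ± 5462 in GFP (SD, n = 5 each). As these CPM use TMM factors, the sums are not shares of a library's counts. ATF4 replicate 2 was the lowest ATF4 library in each of these sums. These sums are descriptions with no test.

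**Figure D4:**
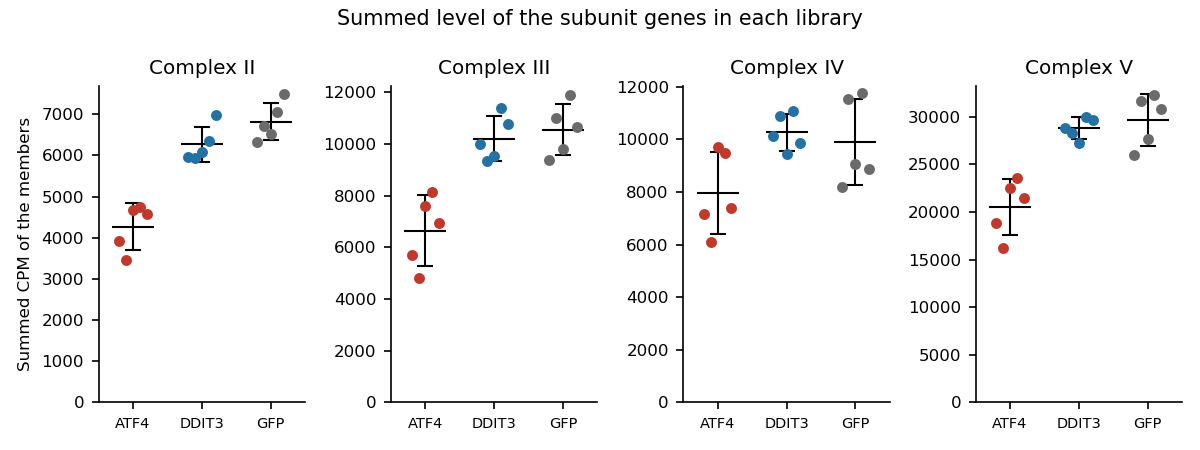
Summed CPM of the subunit genes of complexes II, III, IV and V in each library (points), with group mean and SD (black), for ATF4, DDIT3 and GFP. The ATF4 libraries lie below the GFP libraries in complexes II, III and V and overlap with them in complex IV.

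DDIT3 cardiomyocytes showed no call among these genes. Of the 55 tested members 0 passed the test against GFP in edgeR, 0 had an unadjusted p below 0.05, and DESeq2 and limma-voom called 0 as well, where 0.339% of all tested genes were called lower and 0.525% higher. The log2 fold changes lay between -0.18 (Sdhb) and 0.22 (Cox19), with a median of 0.00 over the tested members and over all tested genes, and standard errors of 0.09 to 0.45. Sdhb was at -0.18 ± 0.11 and Cox19 at 0.22 ± 0.19 (SE), and the lowest adjusted p of a member was 0.651. Cox7a1 was at 0.11 ± 0.23, Cox8b at 0.12 ± 0.18, Cox8a at -0.01 ± 0.11 and Cox6a1 at -0.07 ± 0.12 (SE). The 5 isoform ratios overlapped between DDIT3 and GFP, with differences from -0.02 (Cox7a1 to Cox7a2) to 0.14 (Cox8b to Cox8a) and exact permutation p values of 0.206 and above. Missing the threshold does not show that DDIT3 and GFP were alike.

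The direct comparison of ATF4 with DDIT3 tests whether the groups differ, and it shares its ATF4 libraries with the comparison above. Here 42 of 55 tested members were lower in ATF4, 2 higher and 11 not past the threshold. That is 76.4% called lower, against 16.0% of all tested genes, and 3.64% called higher, against 17.8%. The median was -0.49 over the tested members and 0.00 over all tested genes. The libraries did not overlap for 24 members that were lower and 2 that were higher, against 10.3% and 12.3% of all tested genes. The 8 members with the lowest p were Sdha (-0.64 ± 0.10), Uqcrc1 (-0.70 ± 0.11), Cox6a1 (0.74 ± 0.12), Cox7a1 (-1.36 ± 0.24), Uqcrfs1 (-0.71 ± 0.13), Cox8b (-0.95 ± 0.19), Cox6c (-0.86 ± 0.17) and Atp5g3 (-0.61 ± 0.12, log2 fold change ± SE). Their edgeR adjusted p ran from 7.78e-05 (Sdha) to 7.80e-04 (Atp5g3). Cox6c had 371, 333, 522, 598 and 388 CPM in the ATF4 libraries, 861, 853, 685, 857 and 768 CPM in the DDIT3 libraries and 536, 876, 646, 963 and 689.9 CPM in the GFP libraries, so that ATF4 was below each DDIT3 library and overlapped with GFP. Cox8a was higher in ATF4 than in DDIT3 at 0.53 ± 0.11, and Cox19 was not called (0.31 ± 0.19, SE, edgeR adjusted p 0.226). The ratios of Cox6a2 to Cox6a1, Cox7a1 to Cox7a2 and Cox8b to Cox8a were different in ATF4 against DDIT3 by -0.61, -1.11 and -1.51 on the log2 scale (exact permutation p 0.00794 each, adjusted 0.0149). The other 2 ratios did not overlap either and were higher in ATF4 than in DDIT3, Cox4i2 to Cox4i1 by 0.90 and Atp5g1 to Atp5g3 by 0.36, with the same p and adjusted p. These permutations took the libraries as unpaired, though equal replicate numbers were taken to pair the 2 groups. The 12 endothelial markers were called higher in ATF4 than in DDIT3 and 5 of 10 cardiomyocyte markers lower. Also called higher were 4 of 7 pericyte and smooth muscle markers and 2 of 7 tested fibroblast markers (Col1a2 and Pdgfra). The part of these cell types in the members' values was not tested here either.

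Members with short transcripts had higher median coefficients of variation within groups than those with long ones. For the 31 tested members under 1000 bases the median coefficient of variation was 24.0% in ATF4, 10.2% in DDIT3 and 18.6% in GFP, and for the 24 of 1000 bases or more it was 19.9% in ATF4, 9.29% in DDIT3 and 10.5% in GFP. Over all tested genes it was 21.7% in ATF4, 14.2% in DDIT3 and 19.1% in GFP for those under 1000 bases, and 18.8% in ATF4, 16.9% in DDIT3 and 16.9% in GFP for longer ones, so that short genes as a whole also varied more in ATF4 and GFP but not in DDIT3. The libraries that stood high did so for many short members together. The median log2 distance of the short members from their GFP means was -0.70, -0.89, -0.17, -0.09 and -0.54 in ATF4 replicates 1 to 5, and -0.30, 0.24, -0.11, 0.29 and -0.14 in GFP replicates 1 to 5. For the long members it was -0.70, -0.85, -0.39, -0.30 and -0.52 in ATF4 and -0.18, 0.04, -0.04, 0.12 and 0.06 in GFP. Among short members ATF4 replicates 3 and 4 thus reached the range of GFP replicates 1, 3 and 5, and among long members no ATF4 library did. In ATF4 against GFP the median log2 fold change was -0.46 for the short and -0.53 for the long members. Over all tested genes it was -0.06 for 750 genes under 1000 bases and 0.03 for 11064 longer ones. Of the 14 members that missed the threshold, Uqcrq, Uqcr10, Cox4i2, Cox6a2, Cox6b1, Cox7a2, Cox17, Atp5e, Atp5g1 and Atp5l were short. The split at 1000 bases was chosen after the values were seen, and its cause was not tested.

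**Figure D5:**
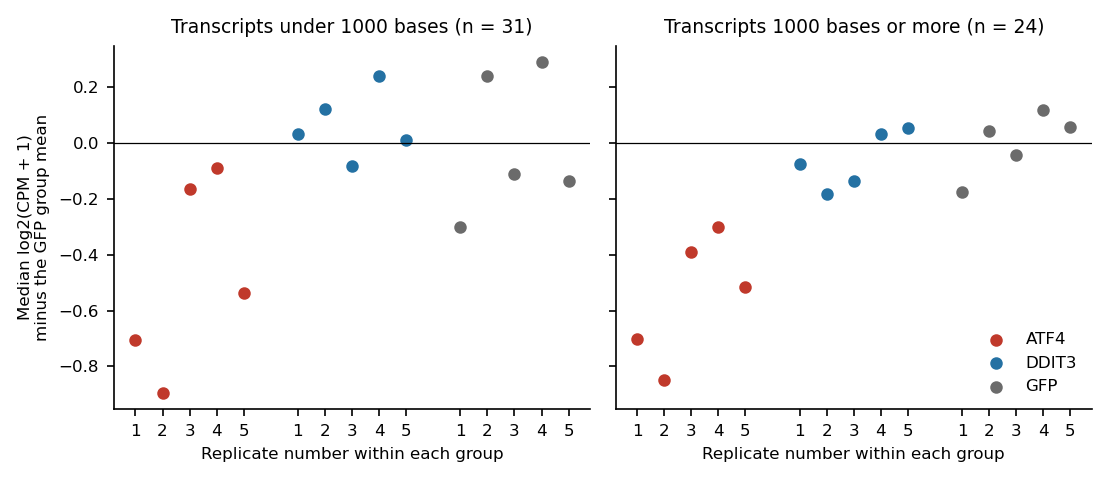
Median over members of log2(CPM + 1) minus the gene's GFP mean, for each library, for the 31 tested members under 1000 bases (left) and the 24 of 1000 bases or more (right). ATF4 replicates 3 and 4 reach the GFP range among the short members and no ATF4 library does among the long ones.

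Genes around these complexes that are no members were mostly lower too in ATF4 against GFP, where 15.6% of all tested genes were called lower and 16.5% higher. Of 18 tested assembly and accessory factors of complexes III, IV and V, 12 fell and 1 rose. Higd2a, a complex IV factor, was at -0.69 ± 0.11, Atpaf2, an assembly factor of the complex V head, at -0.66 ± 0.11, and Oxa1l, which inserts subunits into the inner membrane, at -0.51 ± 0.11 (log2 fold change ± SE). The gene that rose was Atpif1, the inhibitor of complex V, named after its value was seen (0.60 ± 0.14, SE, edgeR adjusted p 0.00379). Of 13 tested genes of ubiquinone synthesis 7 fell and 1 rose: Coq9 was at -0.78 ± 0.11 and Coq6 at -0.55 ± 0.11, while Adck4, a kinase-like gene of the pathway, rose by 0.92 ± 0.15 (SE). Of 7 tested genes that bring electrons to ubiquinone outside complexes I and II 6 fell, among them Sqrdl (-0.67 ± 0.11), which oxidises sulphide, Etfdh (-0.60 ± 0.10), which takes electrons from fatty acid oxidation, and Dhodh (-0.68 ± 0.12), an enzyme of pyrimidine synthesis. The median log2 fold changes of these 3 lists were -0.50, -0.47 and -0.60.

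Regulators of respiratory genes were called in both directions. Of 14 tested 3 fell and 2 rose, with a median of -0.07, where 15.6% of all tested genes were called lower and 16.5% higher. Esrrg, an estrogen-related receptor, rose by 0.65 ± 0.13 and Nfe2l2, the antioxidant regulator NRF2, by 0.70 ± 0.15, and the related receptor Esrra fell by 0.58 ± 0.16 on the log2 scale (SE). None of the tested genes of these 4 lists was called in DDIT3 against GFP. The authors' deposited tables of their own tests gave a like count: 39 members lower and 3 higher in ATF4 against GFP and 0 in DDIT3 against GFP, with the 41 calls of edgeR all among theirs.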

How the data were processed

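RNA-seq counts of 15 mouse cardiomyocyte libraries, 5 in each of the ATF4, DDIT3 and GFP groups, were analysed. Per the labels' protocols, hearts were digested by Langendorff perfusion, and polyA RNA was made into libraries with SMART-Seq v4 and Nextera XT kits, which do not mark strand. STAR, featureCounts, DESeq2, DESeq and build mm10 are named in the submitters' processing notes, with no versions. The authors deposited raw read counts per gene (whole numbers) with a gene length column (other unit, bases), which divided CPM when levels of genes were compared. The authors' result tables for both vectors against GFP, as deposited, hold log2 fold changes and adjusted p-values and were used only where named.

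Groups came from the sample titles. Counts of 11814 of 23337 genes passed filterByExpr and were tested in 1 edgeR 4.0.16 quasi-likelihood fit of all 15 libraries (robust, TMM factors, 12 residual df, common BCV, the spread between replicates, of 19.6%). P-values were adjusted by Benjamini-Hochberg over all genes tested, with a threshold of 0.05. Fold changes are ATF4 or DDIT3 over GFP, or ATF4 over DDIT3. The fit was tested on simulated data, where the median estimates lay close to the sizes put in. It called most of the larger changes but only a minority of the smaller ones, which were about as large as the members' median fall in ATF4. The mark for passing was lowered after a first run was seen. Every simulated gene had the same spread and few genes changed, unlike in these data, so the rates of calling need not hold for them. Isoform ratios (log2 of CPM + 1) of pairs with both genes tested were compared by two-sided exact permutation, with the libraries taken as unpaired. CPM use TMM factors. Totals of 6217744 to 8317249 counts set the precision, and the limit for a gene at 0 is 3 counts and covers counting error only. Libraries of 1 group differed beyond sampling noise (chi-square per degree of freedom 8.60 to 50.4), so each was counted.

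The members, gene lists and tests were chosen with earlier results of these data known. Values in every library are given for the 8 members with the lowest p in ATF4 against GFP, those called against the majority, the 3 isoform pairs and the most abundant member per length of each complex; Cox6c and Atpif1 were added after their values were seen. Of other lists, the 3 genes with the lowest p are named. Shared 50-base windows and exon overlaps came from GENCODE transcripts of the build, matched to 58 of 59 members, and promoters from RefSeq (GRCm38.p6), where only the 250 bases before the start were searched. Fibroblast, erythroid and atrial markers were also looked at: the 3 erythroid markers in the table were untested and summed to 0.260 to 1.14 CPM in ATF4, 0.139 to 0.651 in DDIT3 and 0 to 2.61 in GFP, with Hba-a1 and Hba-a2 at 0, and of 4 atrial markers Nppa was called higher in ATF4 against GFP (log2 fold change 1.39), while Myl7 (-1.89), Sln (-2.35) and Myl4 (-0.60) did not pass; Sln was called lower in ATF4 against DDIT3 (-2.80, adjusted p 0.0429).

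Whether equal replicate numbers pair libraries was checked by correlating, across genes, their deviations from the group means. The correlation was above 0.1 in all 5 pairs for DDIT3 and GFP (0.246 to 0.569) and for ATF4 and DDIT3 (0.128 to 0.515). The numbers were therefore taken to pair these, from the data and not from a label. The highest value for ATF4 and DDIT3 was that of replicate 2, female in both groups, and the part of sex in it was not tested. For ATF4 and GFP the correlation was above 0.1 in 4 of 5. The main fit and the ratio tests did not use this pairing, and only the replicate block did. A test of the ratios within pairs was not run. Alternatives were other scalings, no filter, DESeq2 1.42.0, limma-voom 3.58.1, 2 groups alone, sex as a term, a replicate block and leaving out each library.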

Additional observations from a re-analysis of the deposited data

Results flagged for a closer look

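A sample was looked at again when its distance from the nearest of its group's other 4 libraries was over 0.71 of the group's whole range (Dixon's 95% value for 5 samples). Of 78 groups of values looked at (15 genes, 6 sums and 5 isoform ratios in 3 groups) 4 had such a sample, and chance gives about 1 in 20. Sdha was at 3710.2 CPM in DDIT3 replicate 5, against 2993 to 3098 CPM in the other DDIT3 libraries. It was at 4097 CPM in GFP replicate 5, against 3150 to 3417 CPM in the other GFP libraries, and both lie on the side away from ATF4. The 10 assembly and joining factors of complexes II and IV summed to 552 CPM in GFP replicate 1, against 646 to 681 CPM in the other GFP libraries. The log2 ratio of Atp5g1 to Atp5g3 was -2.43 in ATF4 replicate 2, against -2.11 to -2.06 in the other ATF4 libraries.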

How the results depend on the processing

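No member changed direction and call together under any of the 26 alternatives to the fit. In ATF4 against GFP, 22 of the 41 calls held in every one. Leaving out 1 library gave 28 to 41 members lower and 2 to 3 higher, with a median of -0.59 to -0.42. The lost calls were among Uqcrh, Cox4i1, Cox5b, Cox7a2l, Cox7b, Cox7c, Cox19, Sdhaf1, Atp5j2, Atp5k and Atp5s, most of them without ATF4 replicate 5 or GFP replicate 2 (11 lost each, edgeR adjusted p 0.0512 to 0.0924), ATF4 replicate 1 (10 lost, up to 0.108), ATF4 replicate 2 (8, up to 0.0922) or GFP replicate 4 (8, up to 0.110). Without GFP replicate 3, 5 were lost (up to 0.0923), without GFP replicate 5, 2 (up to 0.0555), and without ATF4 replicate 3 or 4, GFP replicate 1 or DDIT3 replicate 1, Cox19 alone (0.0527 to 0.127). Atp5e, Cox6b1 and Uqcr10 gained a call without ATF4 replicate 3 or 4 (0.0169 to 0.0476), Atp5e and Uqcr10 without GFP replicate 1 (0.0237 to 0.0359) and Atp5e without GFP replicate 3 (0.0429). Sex as a term lost Cox7b and Cox19 (0.0505 to 0.0663), no filter lost Cox19 (0.0556), and fitting ATF4 and GFP alone lost Cox4i1, Cox5b, Cox7b, Cox7c and Uqcrh (0.0510 to 0.0670), with 33 lower. The male libraries alone, an alternative chosen after seeing the data, gave 20 members lower instead of 38, with fewer libraries. Leaving out the 5 members that share over 50% of their windows gave 37, and leaving out the 3 set apart by name gave 36, both also chosen after seeing the data. ATF4 against DDIT3 had 33 to 42 lower and 2 higher under every alternative run, and DDIT3 against GFP 0 throughout.

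A replicate block gave 41 members lower and 3 higher for ATF4 against GFP, 42 lower and 2 higher for ATF4 against DDIT3, and 0 for DDIT3 against GFP. It added Atp5e, Cox6b1 and Uqcr10 to the calls of the first comparison and changed no other call. For ATF4 and GFP the best match was the library of its own number in 4 of 5. It was likewise 4 of 5 for ATF4 and DDIT3, and 5 of 5 for DDIT3 and GFP.

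The ratios of Cox6a2 to Cox6a1, Cox7a1 to Cox7a2 and Cox8b to Cox8a kept their calls under a pseudocount of 0.1 CPM and without any 1 library. That of Atp5g1 to Atp5g3 in ATF4 against GFP was no longer called without ATF4 replicate 1, 3, 4 or 5 or GFP replicate 3, 4 or 5, and ranged from 0.30 to 0.42. With 1 library fewer the test has fewer permutations. That of Cox4i2 to Cox4i1 ranged from 0.72 to 1.21 and was called without GFP replicate 1 (1.21). In ATF4 against DDIT3 both kept their calls under the pseudocount and without any 1 library.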
